A study of Mus musculus with 3 samples.

Results

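The genes examined here drive or restrain cell division. The question was where peaks of the transcription factor Atoh7 in embryonic mouse retina lie around them. They are 40 genes of the cell cycle engine: 18 of the G1/S step (D- and E-type cyclins, their kinases, E2F and Rb family members, Myc and Mycn), 8 of DNA replication, and 14 of S/G2 and mitosis. A peak was taken when its midpoint lay inside the RefSeq body of a listed gene or within 50 kb of it, which gave 20 peaks of the 3668 in the deposited list. The study used CUT&RUN, an assay that tethers a nuclease to an antibody so that DNA beside the bound protein is cut free, on retina of C57Bl6/J mice at embryonic day 14. There were 3 libraries, 2 with an Atoh7 antibody and 1 with IgG, and no mutant, treatment or further age was among them. Whether separate animals gave the Atoh7 libraries is not stated in the labels. The list holds positions and widths on mm10, with no peak height and no value per library, so read depth is unknown, replicate spread and IgG background are not analysed here, and no result below carries a test. The retinal identity of the tissue rests on the labels, since peak positions hold no expression values to check it against.

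Cyclins bound to cyclin-dependent kinases carry a cell from one phase to the next. In G1 they inactivate Rb proteins and so free E2F factors, which switch on the genes for DNA synthesis, and after replication cyclin B with Cdk1 starts mitosis. Retinal progenitors divide until a proneural programme moves them to leave the cycle, and Atoh7, a basic helix-loop-helix (bHLH) protein, is made around that last division. Proteins of its family bind a short motif, the E-box, written CANNTG.

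The peaks near these genes were mostly away from the genes' own ends, as were peaks near protein-coding genes in general. Of 40 genes, 14 (35%, 95% Wilson interval 22.1 to 50.5%) had a peak inside the body or within 50 kb. Over all 21631 protein-coding genes the share was 24.4%, inside that interval, so the count as a whole did not stand clear of the background. A peak within 1 kb of either of the gene's own ends was found at 1 of the 40 genes, Cdc20 (2.5%, 95% Wilson interval 0.443 to 12.9%), against 4.30% of protein-coding genes. Of the 20 peaks, 1 lay at an own end, 5 (25%) elsewhere in the member's body and 14 (70%) outside it. Over all protein-coding genes, 7394 pairs of a gene and a peak within 50 kb divided into 12.8% at an own end, 21.4% elsewhere in the body and 65.8% outside. Intervals on shares cover the counting of genes only.

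**Figure D1:**
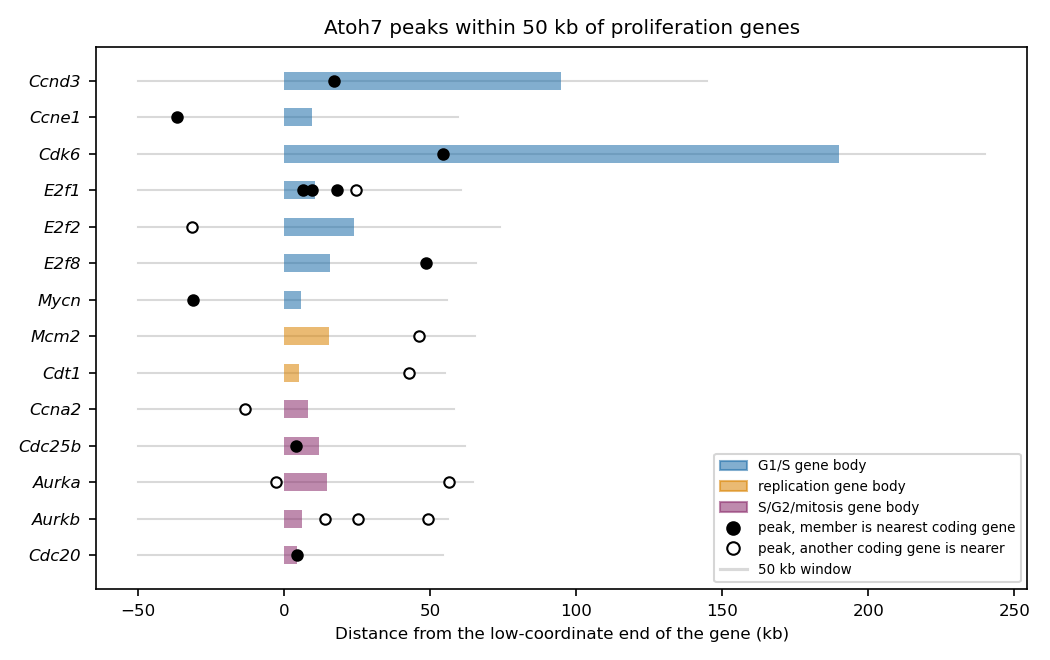
Position of each of the 20 peaks (points) relative to the low-coordinate end of the 14 member genes that have one, in kb, with gene bodies drawn to scale as bars coloured by phase group and grey lines marking the 50 kb windows. Filled points are peaks for which the member is the nearest protein-coding gene (10 peaks) and open points are peaks nearer to another gene (10 peaks), which include all of those at Aurka and Aurkb.

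Sequence could be read where a peak overlapped a start-site window of the RefSeq promoter table (GRCm38.p6, the assembly that mm10 names, 250 bases before to 50 after a start). The runs below are the bases upstream of the start that lie under the peak and outside every protein-coding body, 5′ to 3′ on the strand of the named gene, with each CANNTG in capitals. There were 12 such runs of at least 30 bases, 5 with a CANNTG and 7 without. Those printed are every run from the 20 peaks, at a member gene (Cdc20) or at starts of genes near one (Gm30771 and Gm30684 near Ccne1, Borcs6 and Tmem107 near Aurkb), and every run at the own end of a further cell cycle gene described below (Birc5, Orc6 and Cdkn2d). The 4 not printed lie at neighbours of further genes, 1 with a CANNTG (Mfsd5) and 3 without (Smndc1, Naca and Tedc2).
Cdc20, chr4:118437344-118437593, minus strand: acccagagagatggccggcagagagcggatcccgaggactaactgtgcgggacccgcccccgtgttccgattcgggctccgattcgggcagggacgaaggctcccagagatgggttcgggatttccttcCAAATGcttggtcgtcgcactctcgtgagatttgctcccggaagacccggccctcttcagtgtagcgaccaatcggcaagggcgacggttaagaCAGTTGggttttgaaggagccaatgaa
Gm30771, chr7:38061030-38061279, plus strand: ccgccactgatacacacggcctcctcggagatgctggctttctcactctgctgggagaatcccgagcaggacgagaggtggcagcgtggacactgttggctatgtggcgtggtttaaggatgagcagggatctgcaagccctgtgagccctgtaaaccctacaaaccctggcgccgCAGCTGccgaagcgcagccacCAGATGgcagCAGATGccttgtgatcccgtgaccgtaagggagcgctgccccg
Gm30684, chr7:38061361-38061446, minus strand: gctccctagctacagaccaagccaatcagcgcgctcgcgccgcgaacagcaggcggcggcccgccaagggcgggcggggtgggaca
Borcs6, chr11:69059525-69059723, plus strand: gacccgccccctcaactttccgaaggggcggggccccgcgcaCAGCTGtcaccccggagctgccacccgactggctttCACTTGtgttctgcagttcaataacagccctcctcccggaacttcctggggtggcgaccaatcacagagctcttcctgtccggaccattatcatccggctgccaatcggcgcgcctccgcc
Tmem107, chr11:69070559-69070808, plus strand: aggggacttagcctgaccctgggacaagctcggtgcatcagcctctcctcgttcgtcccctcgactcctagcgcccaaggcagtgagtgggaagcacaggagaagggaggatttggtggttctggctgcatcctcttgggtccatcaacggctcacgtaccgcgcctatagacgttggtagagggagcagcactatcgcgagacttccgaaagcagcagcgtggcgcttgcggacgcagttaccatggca
Birc5, chr11:117848987-117849225, plus strand: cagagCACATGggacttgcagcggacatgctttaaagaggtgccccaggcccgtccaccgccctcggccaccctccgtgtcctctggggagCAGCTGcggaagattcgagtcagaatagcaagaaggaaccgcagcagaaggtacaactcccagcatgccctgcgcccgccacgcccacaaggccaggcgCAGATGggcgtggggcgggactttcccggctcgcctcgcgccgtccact
Orc6, chr8:85299566-85299631, plus strand: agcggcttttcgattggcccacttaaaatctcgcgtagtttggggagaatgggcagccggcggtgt
Cdkn2d, chr9:21291422-21291459, minus strand: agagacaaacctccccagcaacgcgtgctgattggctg

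Among the G1/S genes, E2f1 had the most peaks. E2f1, on chromosome 2, encodes the activating E2F factor that drives entry into S phase, and 4 peaks lay within 50 kb of it. Over all chromosomes, 0.592% of protein-coding genes had 4 or more. A 526 bp peak at chr2:154565464-154565989 was centred inside the gene, 3700 bp downstream of its listed start site. A 612 bp peak at chr2:154568535-154569146 was also inside, 586 bp downstream of that start and 1052 bp from the annotated gene end, just past the 1 kb limit. Measured from listed start sites in place of gene ends, E2f1 and Cdc20 were the 2 members with a peak within 1 kb, beside 4.56% of protein-coding genes. A narrow 177 bp peak was centred 7.64 kb beyond the gene on the upstream side. The remaining peak, 427 bp wide and 14.3 kb out, lay nearer to Pxmp4, a peroxisomal membrane protein gene, at 1.59 kb, and 535 bp from the long noncoding RNA gene Gm39963. Neither peak inside E2f1 overlapped its promoter window, and the window held no CANNTG.

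Of the 8 D- and E-type cyclin genes and G1 kinase genes, 3 had a peak within 50 kb, beside 24.4% of protein-coding genes. The peaks lay in the body at Cdk6 and Ccnd3 and outside it at Ccne1. Cdk6, which encodes a kinase partner of D-type cyclins, had a 235 bp peak at chr5:3395131-3395365, deep in its body at 54.2 kb from the nearer end. Ccnd3, a D-type cyclin gene, had a 363 bp peak at chr17:47521820-47522182, centred 16.9 kb inside. Ccnd1, the main D-type cyclin gene of retinal progenitors, had its nearest peak 234 kb away. Ccnd2 and Ccne2, a further D-type and E-type cyclin gene, had theirs at 549 and 710.0 kb, and the kinase genes Cdk4 and Cdk2 at 106 and 132 kb.

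Several G1/S genes had a peak in the flanking sequence alone. Ccne1, the E-type cyclin gene that acts with Cdk2, had a 478 bp peak at chr7:38060969-38061446, 36.8 kb outside the gene. That peak covered listed start sites of the long noncoding RNA genes Gm30771 and Gm30684, which run in opposite directions, and the Gm30771 run printed above holds 1 CAGCTG and 2 CAGATG, while the Gm30684 run holds no E-box. Mycn, which encodes the Myc-family factor of dividing neural progenitors, had a 328 bp peak 31.3 kb outside, and no other protein-coding gene was nearer to it. E2f8, an atypical repressive E2F gene, had a 239 bp peak 32.9 kb away. E2f2, an activating E2F gene, had a 436 bp peak 31.7 kb away that lay 3.27 kb from Id3, which encodes a helix-loop-helix protein that blocks bHLH factors. Distance alone does not assign such a peak to a gene.

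The other G1/S genes had none within 50 kb. Myc had its nearest peak 913 kb away, the farthest of the group. The remaining distances were 76.4 kb for Rbl1 and 151 kb for Rb1, the Rb family genes, 144 kb for E2f7, 159.8 kb for E2f3, and 312 kb for Cdc25a, the phosphatase gene that releases Cdk2. In all, 7 of 18 G1/S genes (38.9%, 95% Wilson interval 20.3 to 61.4%) had a peak, beside 24.4% of protein-coding genes, inside that interval. At 6 of these 7 the member was the nearest protein-coding gene to at least 1 of its peaks. This was 33.3% of 18 (95% Wilson interval 16.3 to 56.3%), and the share over protein-coding genes, 10.8%, lay below that interval. Over all 40 members the share was 20% (95% Wilson interval 10.5 to 34.8%), with 10.8% inside. This setting was 1 of several and was not tested.

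Replication genes had a peak about as often as protein-coding genes in general. Of these 8 genes, the smallest group, 2 had a peak within 50 kb (25%, 95% Wilson interval 7.15 to 59.1%), beside 24.4% of protein-coding genes, and 0 of 8 had a peak in the body or within 10 kb, where 12.4% of protein-coding genes did. A count of 0 of 8 allows a share of up to 37.5%, so a deficit was not detectable with a list of this size. Mcm2, a subunit of the replicative helicase, had a 419 bp peak 30.9 kb away on its upstream side, with Tpra1 nearer at 17.4 kb. Cdt1, which loads that helicase onto origins, had a 301 bp peak 37.7 kb away, inside Galns and within 1 kb of ends of Galns and Trappc2l. At neither was the member the nearest gene. Pcna, the sliding clamp gene, had its nearest peak at 471 kb and the origin-licensing gene Cdc6 at 225 kb. The other helicase genes ranged from 57.6 kb (Mcm6) through 500.4 kb (Mcm3) and 607 kb (Mcm7) to 2359 kb (Mcm5).

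Among the S/G2 and mitosis genes, Cdc20 and Cdc25b stood closest to peaks. Cdc20 encodes the activator of the anaphase-promoting complex, and its 379 bp peak at chr4:118437280-118437658 covered the start site, with its centre 126 bp upstream. The 250 bases printed above, all under the peak, hold 2 E-boxes, a CAAATG that begins 121 bases before the start and a CAGTTG 27 bases before it, and no CAGCTG. They also hold TTTGAA 18 bases before the start, the letters of the cell cycle gene homology region known from late cell cycle promoters, and CCAAT at 53 and 8 bases. Cdc25b encodes the phosphatase that activates Cdk1 at the entry to mitosis, and had the widest of the 20 peaks, 1313 bp at chr2:131189771-131191083. It lay inside the gene, 3479 bp downstream of the start, and ranked 6 of all 3668 peaks by width. Width is not a measure of occupancy.

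The aurora kinase genes had no peak in the body, and all 5 peaks in their windows lay inside or at an end of a neighbouring gene. Aurkb, a kinase gene of the chromosomal passenger complex, had 3 peaks within 50 kb, as 1.91% of protein-coding genes had 3 or more. Each was centred within 1 kb of an end of another gene, outside its body. A 359 bp peak was centred 231 bp outside Borcs6, a gene of lysosome positioning, a 487 bp peak 16 bp outside Tmem107, a gene of the ciliary transition zone, and a 274 bp peak 71 bp outside Per1, a circadian clock gene. The Tmem107 and Per1 peaks ran across that end into the gene, and the Borcs6 peak did not. Distances of the 3 peaks to Aurkb were 7.88, 19.1 and 43.4 kb. The Borcs6 run above holds 2 E-boxes, 1 of them CAGCTG, and the Tmem107 run holds 0. Aurka, which encodes the spindle pole kinase, had a 338 bp peak 2.95 kb from its end that lay inside Fam210b, and a 404 bp peak 41.8 kb away inside Cass4.

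**Figure D2:**
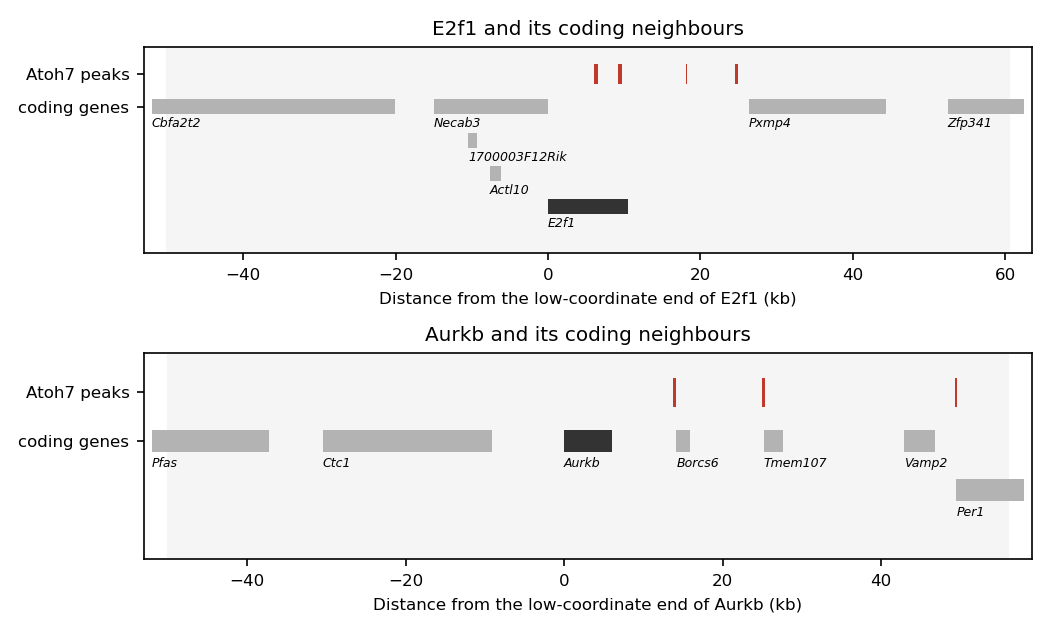
Peaks (red) and protein-coding genes (dark for the named gene, grey for neighbours) around E2f1 and Aurkb, in kb from the low-coordinate end of each, with the 50 kb window shaded and genes cut off at its edge. At E2f1, 2 of 4 peaks are inside the gene, while at Aurkb the 3 peaks sit at ends of Borcs6, Tmem107 and Per1.

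Ccna2, the cyclin gene of S phase and G2, had a 582 bp peak 13.3 kb away, with Exosc9, an RNA exosome gene, nearer at 1.04 kb. The other 9 genes of this group had no peak within 50 kb, as was so for most protein-coding genes. The nearest were 314 kb from Cdk1, the kinase that Cdc25b activates, 653 kb from Ccnb1 and 730.0 kb from Ccnb2, the B-type cyclin genes, and 603 kb from Wee1, which encodes the inhibitory kinase of Cdk1. The proliferation markers Mki67 and Top2a had theirs at 367 and 310.4 kb. Distances were 92.2 kb for Plk1 and 294 kb for Bub1, genes of a mitotic kinase and a spindle checkpoint kinase, and 89.1 kb for Cdc25c. In all, 5 of 14 genes of this group (35.7%, 95% Wilson interval 16.3 to 61.2%) had a peak, beside 24.4% of protein-coding genes, inside that interval. At 2 of them, Cdc20 and Cdc25b (14.3% of 14, against 10.8% of protein-coding genes), the member was the nearest protein-coding gene.

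Among protein-coding genes, the peaks lay nearer to another gene than to the member no more often than gene and peak pairs in general. The member was the nearest protein-coding gene to 8 of 10 G1/S peaks, to 0 of 2 replication peaks and to 2 of 8 S/G2 and mitosis peaks. E2f1 alone gave 3 of those 8. Over the 20 peaks this was 10 (50%), against 41.2% of all gene and peak pairs. With noncoding genes counted too the direction turned, with the member nearest to 6 of 20, a lower share than the 2608 of all 7394 pairs. Of the 14 peaks outside a member, 4 (28.6%) lay within 1 kb of an end of another protein-coding gene, against 40.3% over all protein-coding genes: 3 in the Aurkb window and 1 in that of Cdt1. The differences between the phase groups were not tested, their intervals overlap, and peaks in 1 window are not independent of each other.

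**Figure D3:**
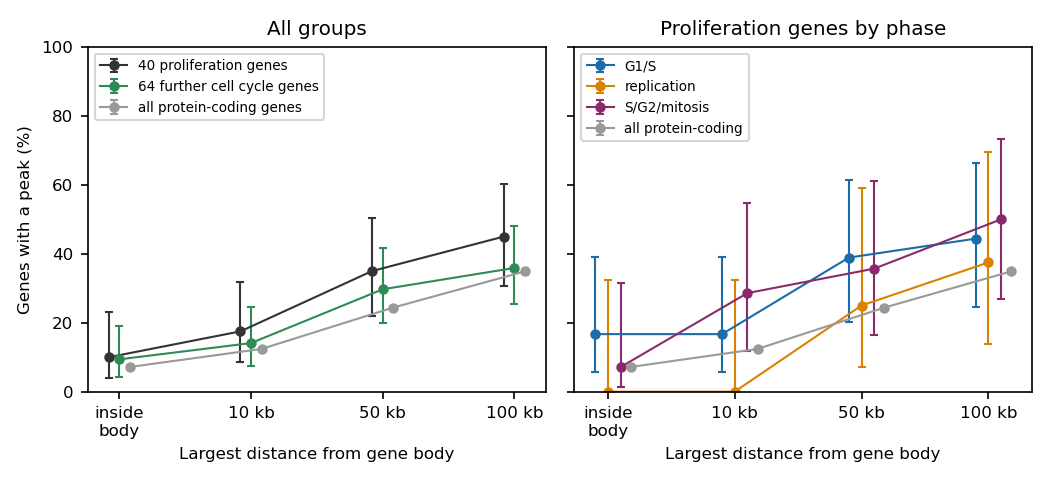
Percent of genes with a peak midpoint inside the body or within 10, 50 or 100 kb of it, with 95% Wilson intervals, for the 40 proliferation genes, 64 further cell cycle genes and all protein-coding genes (left) and by phase group (right). The proliferation genes run from 10% inside the body to 45% within 100 kb beside 7.17% and 34.9% for all protein-coding genes, and the replication group is at 0 up to 10 kb.

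Over all protein-coding genes the share with a peak in the window was higher for longer and for more crowded genes. The shares were therefore also set out by each. Members of up to 10.4 kb had a peak in 6 of 14 cases, where 19.5% of protein-coding genes of that length did. Members of intermediate length had one in 5 of 13 (24.5% of protein-coding genes), and those over 19 kb in 3 of 13 (28.3%). The share of members thus fell with length (42.9, 38.5 and 23.1%) where that of all protein-coding genes rose. That difference rests on few genes and was not tested. Among members with more than 4 other protein-coding genes within 50 kb, 6 of 9 had a peak, against 34.7% of protein-coding genes so crowded. These were E2f1, Cdc25b, Ccnd3, Cdt1, Aurkb and Cdc20. Among members with up to 2 such neighbours 5 of 19 had a peak (19.5%), and with 3 or 4 neighbours 3 of 12 (24.6%).

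Widths of these peaks were spread like those of the whole list. The 14 peaks outside a member ranged from 177 to 582 bp with a median of 381.5 bp, and the median of all 3668 peaks was 381 bp (quartiles 269 and 486 bp). The 5 peaks inside a body had widths of 235 bp (Cdk6), 363 bp (Ccnd3), 526 and 612 bp (E2f1) and 1313 bp (Cdc25b). The own-end peak, at Cdc20, was 379 bp wide. With an own end taken as within 5 kb, 5 peaks at 4 genes (both E2f1 body peaks, Cdc25b, Cdc20 and the nearer Aurka peak, where 6.72% of protein-coding genes had such a peak) had a median of 526 bp and the other 15 a median of 363 bp. The classes overlap, and 1 to 5 peaks do not give a spread to compare.

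**Figure D4:**
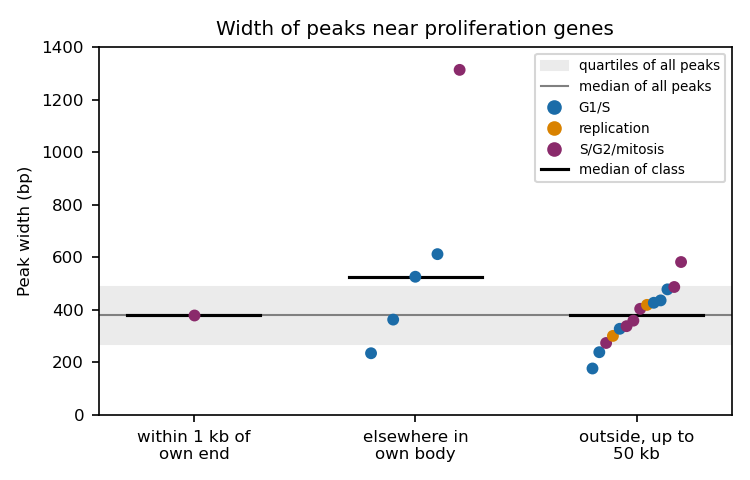
Width in bp of each of the 20 peaks (points coloured by phase group) by position relative to the member gene, with class medians as black lines and the median and quartiles of all 3668 peaks in grey. The Cdc25b peak at 1313 bp stands above the rest, and 10 of the 14 outside peaks fall within the grey band.

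At the edge of the 50 kb window, the outermost peaks inside it were 43.4 kb from Aurkb (274 bp wide) and 41.8 kb from Aurka (404 bp), and the first outside it was 57.6 kb from Mcm6 (328 bp).

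Promoter windows of the members were searched for short motifs on both strands, within the 300 bases of the RefSeq table. The table held 35 windows for 31 of the 40 members and 21045 for all protein-coding genes. CANNTG, which includes the E-boxes named next, was in 19 of 35 member windows (54.3%, against 69% of all). CAGCTG was in 5 (14.3%, against 15.7%), those of Cdc25a, Cdc25b, Cdc6, Cdk2 and Rbl1. None of these 5 windows overlapped a peak, and over all protein-coding genes 208 of 3305 windows with CAGCTG did. CAGATG was in 2 (5.71%, against 14.4%), CAGGTG in 1 (2.86%, against 19.9%) and CATATG in 0 (against 3.04%). TTTGAA was in 12 (34.3%, against 15.6%) and CCAAT in 25 (71.4%, against 38.5%). The TTTGAA windows in the S/G2 and mitosis group were of Aurka, Ccnb2, Cdc20, Cdk1, Mki67, Plk1 and Top2a. The rest were of E2f2, E2f3, E2f8, Mycn and Mcm2, in the other groups. Windows of the mitosis group genes Bub1, Ccnb1 and Cdc25b held no TTTGAA. Of the 35 member windows, that of Cdc20 alone overlapped a peak, where 764 of the 21045 windows of all protein-coding genes did. A match describes letters in a window and does not show a site in use.

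Other genes of the cell cycle were counted the same way. Of 64 further genes, 19 had a peak within 50 kb (29.7%, 95% Wilson interval 19.9 to 41.8%), beside 24.4% of protein-coding genes: 6 of 18 G1/S regulators, 7 of 22 replication genes and 6 of 24 mitosis genes. A peak at an own end was found at 5 of 64 (7.81%, 95% Wilson interval 3.38 to 17%), beside 4.30%. In replication these were Orc6, an origin recognition complex gene, with a 270 bp peak centred 68 bp downstream of its start, Gins1, a helicase cofactor gene, with a 247 bp peak 166 bp from its end, and Pole, the gene of the catalytic subunit of DNA polymerase epsilon, with a 370 bp peak 54 bp from its end. The Orc6 and Pole peaks also lay within 1 kb of an end of Vps35 and of Pxmp2, in that order. In mitosis it was Birc5, the survivin gene, whose product sits in 1 complex with the Aurkb kinase, with a 337 bp peak centred 180 bp upstream of its start. In G1/S it was Cdkn2d, a CDK inhibitor gene, with a 177 bp peak 4 bp from its end.

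The Birc5 run printed above holds 3 E-boxes, the middle one a CAGCTG that begins 159 bases before the start, while the Orc6 run of 66 bases and the Cdkn2d run of 38 bases hold 0. Peaks elsewhere in the body were found at Tfdp2, which encodes a dimer partner of E2F proteins (266 bp), and at Mxi1, an antagonist of Myc (203 bp). Cdkn1b and Cdkn1c, CDK inhibitor genes of cell cycle exit, had a peak 22.4 and 29.7 kb away. The former lay inside Gpr19 at its end, and the latter was nearer to Kcnq1, at 1.54 kb. The CDK inhibitor genes Cdkn1a, Cdkn2a and Cdkn2c had none within 50 kb, with the nearest at 149.7, 384 and 96.2 kb. All 5 peaks in the window of Gins2, a GINS complex gene, lay inside the neighbouring gene Gse1. The replication genes of the member list had 0 own-end peaks of 8, and those of the further list 3 of 22 (13.6%), a difference that was not tested.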

How the data were processed

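Libraries were grouped by their titles. The authors deposited a list of peaks with chromosome, start, end and width (in bp, counted from 1), per the file headers; peak names begin with Atoh7_R1. Tools named, per the submitters' processing notes, are MACS2 2.2.7.1, Bowtie2 2.3.5, Picard 2.0.1, bedtools and SAMtools, with mm10 as the build and no settings. Filtering of the list, and any use of replicate 2 or IgG for it, are not given in the sources used.

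Gene bodies were those of RefSeq on GRCm38.p6 (49554 genes on chromosomes 1 to 19 and X, 21631 protein-coding), without exons. Its start-site table matched 31 of 40 members and 52 of 64 further genes. All members are named. Further genes are named where a peak lay at an own end or in the body. Cdkn1a, Cdkn1b, Cdkn1c, Cdkn2a, Cdkn2c and Gins2 were added after their values were seen. Members, lists and settings were chosen with earlier results of these data known. The window count was tested on simulated data. No significance test was run. Tools were matplotlib 3.10.9, scipy 1.17.1, pandas 2.3.3, numpy 2.4.6 and Python 3.11.15.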

Additional observations from a re-analysis of the deposited data

How the results depend on the processing

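Member genes with a peak numbered 14 within 50 kb (24.4% of protein-coding genes). They numbered 7 within 10 kb (12.4% of protein-coding genes), 4 in the body alone (7.17%), 8 with the wider 50% of peaks (13.2%) and 8 where the member was the nearest protein-coding gene (10.8%). In the same 4 settings G1/S genes, 7 within 50 kb, numbered 3, 3, 3 and 6, and replication genes, 2 within 50 kb, numbered 0, 0, 1 and 0. S/G2 and mitosis genes, 5 within 50 kb, numbered 4, 1, 4 and 2, and the 64 further genes, 19 within 50 kb, numbered 9, 6, 8 and 8. Within 100 kb the members numbered 18 (34.9% of protein-coding genes), and with any overlap of 1 bp 14 (24.5%). In these 2 settings each count stayed within 1.5 times. Members with an own-end peak numbered 1 (4.30% of protein-coding genes), and 4 within 5 kb (6.72%). They numbered 0 with the wider 50% of peaks (1.91%), the Cdc20 peak being 379 bp wide against a limit of 381 bp. Within 1 kb of a listed start site they numbered 2 of 31, Cdc20 and E2f1 (4.56% of protein-coding genes with a listed start site). That setting was chosen after seeing the data, as was the split by number of neighbours. Peaks with the member as nearest gene fell from 10 to 6 of 20 with all annotated genes counted. Over all protein-coding genes such pairs fell from 3047 to 2608 of 7394. Fewer peaks or a smaller window lower these counts by construction, so each is given with its own background. No paired analysis was possible because the list holds no value per library, and leaving out a library was not run for the same reason.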

Other observations

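Over all protein-coding genes, promoter windows that overlapped a peak (764) did not hold a CANNTG more often than those that overlapped none (20281), with 66.2% against 69.1%. Single E-boxes differed in direction: CAGCTG was in 27.2% against 15.3%, CAGATG in 14% against 14.4%, CAGGTG in 17.3% against 20% and CATATG in 1.18% against 3.11%. TTTGAA was in 7.98% against 15.9%, and CCAAT in 47.3% against 38.2%. Windows of different base composition hold these letters at different rates, and its part in these shares was not tested.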
